A study of Bos taurus with 16 samples.

Results

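The step from the 8-cell to the 16-cell stage was described in bovine embryos developed in vivo, with 2 single 8-cell embryos and 2 single 16-cell embryos among the 16 samples of the series. Members were the 4 samples that carry these stage names, and reads were present in them on 13933 of the 27393 loci of the table. The other samples are single mature oocytes, 2-cell and 4-cell embryos, early and compact morulae and blastocysts, 2 of each, and no treatment is named for any of the 16. RNA of each whole embryo was amplified in 2 rounds before sequencing. Levels are given as CPM, the reads of a locus per 1e6 reads of that embryo, and they are not divided by gene length. The labels name no animal, so p-values measure only the spread between these embryos, and because whole embryos were sequenced, fewer cells with a transcript and less RNA per cell cannot be told apart.

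A cleavage-stage embryo starts from mRNA stored by the oocyte. The store is degraded while the embryonic genome is switched on, and in cattle the main wave of embryonic transcription falls at about the 8-cell stage. The division that follows is the first one made by cells that already carry a large share of their own transcripts, and compaction and the split into trophectoderm and inner cell mass are still ahead.

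Between 808192 and 1039587 reads were recovered from the 8-cell embryos, and 1294285 and 607672 from 16-cell embryos 1 and 2. A locus with 3 reads, taken as the floor of detection, has 2.32 to 4.94 CPM depending on the embryo. The 9670 loci that passed the filter on low values took 99.4% of the reads of the 4 embryos. These floors account for counting error alone, because copies made in amplification were counted as separate reads.

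The 2 embryos of the 8-cell stage did not resemble each other as closely as 8-cell embryo 1 resembled both 16-cell embryos. Over the 9670 loci, which are not independent of each other, the correlation of log2 values was 0.73 between the 8-cell embryos and 0.86 between the 16-cell embryos. It was 0.84 and 0.79 between 8-cell embryo 1 and the 16-cell embryos, against 0.71 and 0.65 for 8-cell embryo 2. Counts of calls, the largest changes as a group and the gene lists that hang on an embryo are therefore also given without it.

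Genes that set the 8-cell embryos apart were chosen after their values were seen and are given as a description. On 132 tested loci with at least 50 CPM, 8-cell embryo 1 was 8-fold or more above 8-cell embryo 2, and at 100 of these both 16-cell embryos lay nearer to 8-cell embryo 1. On 106 such loci 8-cell embryo 2 was 8-fold or more above 8-cell embryo 1, and at 71 of these both 16-cell embryos again lay nearer to 8-cell embryo 1. Both 4-cell embryos were above both 16-cell embryos at 75 of these 106 loci, and at 8 of the 132. Between the 16-cell embryos 35 loci differed by as much.

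Among the transcripts that 8-cell embryo 2 held in larger quantity were some known from the oocyte. ACCSL was at 45038 and 63066 CPM in the 4-cell embryos, 170 and 3588 in the 8-cell embryos, and 61.0 and 88.9 in the 16-cell embryos. NLRP8, an NLR-family gene of oocytes, was at 78.0 and 2618 CPM in the 8-cell embryos and 25.5 and 23.0 in the 16-cell embryos. EIF4E1B, the oocyte form of a cap-binding protein, was at 12.4 and 2398 CPM and then at 3.86 and 4.94. In each of these genes 8-cell embryo 1 was already close to the 16-cell level and 8-cell embryo 2 was not.

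Of the 4 embryos compared, 8-cell embryo 2 alone was low in the opposite set. GJB5, a gap junction connexin, was at 2592 and 10.6 CPM in the 8-cell embryos and at 1313 and 713 in the 16-cell embryos. DLGAP5, a spindle protein, was at 3979 and 126 CPM and then at 8494 and 9833. GPT2, an alanine aminotransferase of mitochondria, was at 4150 and 84.6 CPM and then at 2774 and 2633. KDM4A, a histone H3 lysine demethylase, was at 2811 and 323 CPM and then at 2267 and 2936. The 4-cell embryos were also low in GJB5, at 5.56 and 2.46 CPM, and in KDM4A, at 285 and 271 CPM. Without 8-cell embryo 2 the log2 difference of GJB5, 16-cell minus 8-cell, went from 2.33 to -1.73, that of GPT2 from 2.02 to -0.93 and that of KDM4A from 1.27 to -0.43. Without 8-cell embryo 1 they were 6.39, 4.96 and 2.97, sizes that the choice of these genes for a low value in embryo 2 fixes in part. With all 4 embryos limma called none of these genes, and in GJB5, GPT2 and KDM4A the sign of the stage difference depended on which 8-cell embryo was kept.

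**Figure D1:**
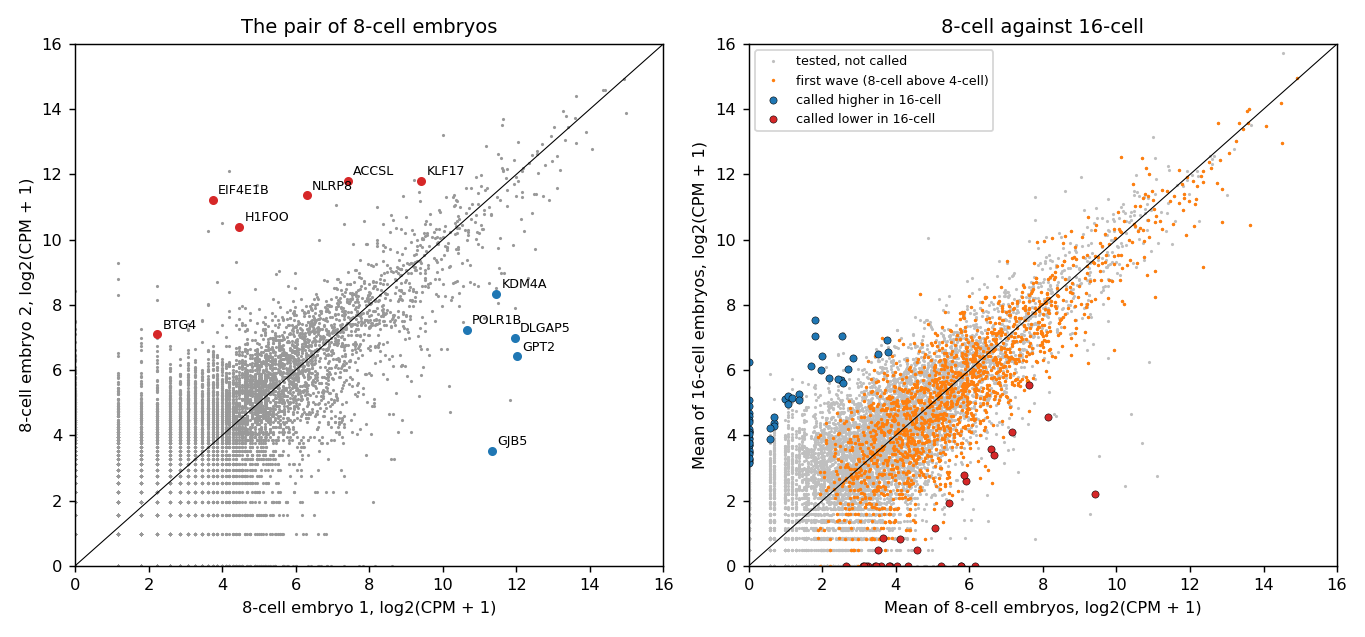
Levels of the 9670 tested loci on log2(CPM + 1) axes, with the line of equal levels. In the left panel the 8-cell embryos are set against each other, with genes high in embryo 1 in blue and genes high in embryo 2 in red; in the right panel the mean of the 8-cell embryos is set against the mean of the 16-cell embryos, with first-wave loci in orange and the 53 higher and 30 lower loci in blue and red, most of them near the axes.

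The comparison of the stages asked which transcripts change over this one division. Of the 9670 loci, 53 (0.548%) were higher and 30 (0.310%) were lower in 16-cell than in 8-cell embryos by limma at a Benjamini-Hochberg adjusted p of 0.05, in a model of all 8 stages. At an unadjusted p of 0.05 the counts were 893 higher (9.23%) and 780 lower (8.07%). Most of these loci had few reads, with 41 of the higher and 20 of the lower ones at 100 reads or fewer over the 4 embryos. All 53 higher loci and all 30 lower loci had no overlap between the 2 and 2 embryos, as had 19.8% and 19.2% of all loci tested.

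The calls depended on the tool and on single embryos. edgeR on the recovered reads called 0 loci in either direction at an adjusted p of 0.05, with 663 higher (6.86%) and 698 lower (7.22%) at an unadjusted p of 0.05. DESeq2 called 65 higher (1.54%) and 87 lower (2.06%) among 4233 loci with an adjusted p, and 560 (5.79%) and 722 (7.47%) of the 9670 at an unadjusted p of 0.05. Of the loci called by limma, 19 higher and 10 lower ones were also called by DESeq2. With the 4 embryos alone limma called 0 loci. Without 8-cell embryo 2 there were 20 higher and 1 lower, without 16-cell embryo 2 there were 6 and 2, without 16-cell embryo 1 there were 31 and 24, and without 8-cell embryo 1 there were 422 and 336. An exact permutation of 2 against 2 embryos cannot give a two-sided p below 0.333 for a single gene.

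**Figure D2:**
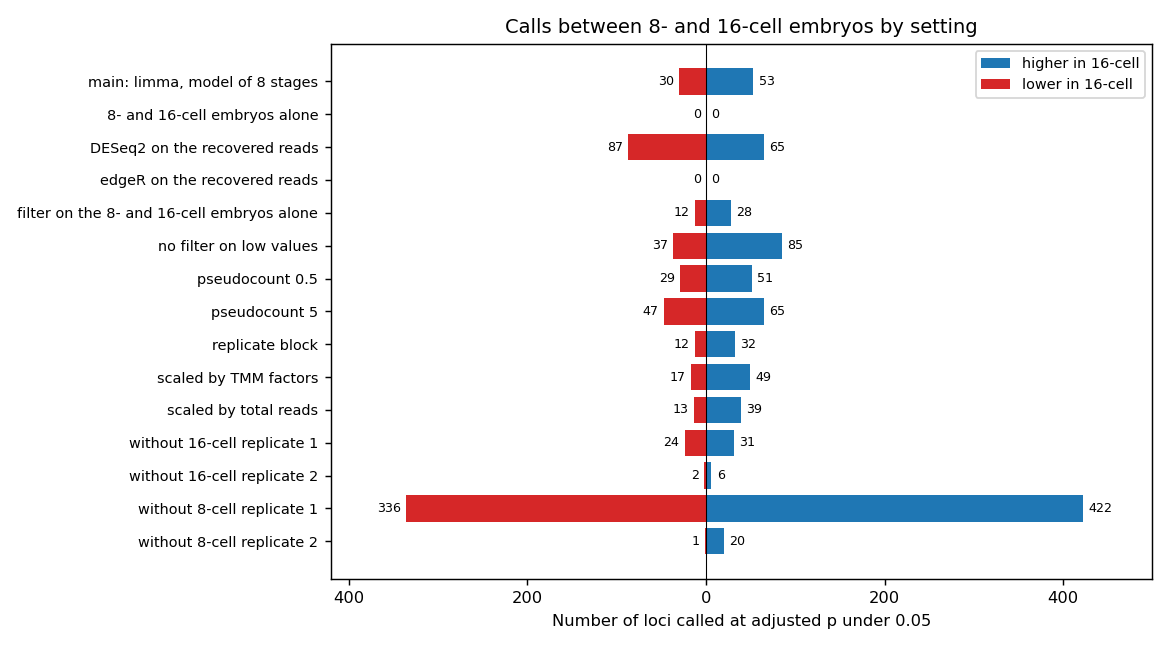
Number of loci called higher (blue, right) and lower (red, left) in 16-cell than in 8-cell embryos at an adjusted p under 0.05, for limma in the model of 8 stages (top bar, 53 and 30) and for each alternative. The longest bars, 422 and 336, belong to the setting without 8-cell embryo 1, and the shortest, with 0 loci, to edgeR and to limma on the 4 embryos alone.

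IFNT and SMAD9 were the loci with a symbol that stayed called whichever of the 4 embryos was left out, together with LOC100851269 among the higher loci and CUFF.54929.1 among the lower ones, which was at 35.9 and 36.6 CPM in the 8-cell embryos with no read in the 16-cell embryos. edgeR called neither IFNT nor any other locus. IFNT, a copy of the interferon tau genes by which the ruminant trophoblast signals pregnancy, had no read in either 8-cell embryo and was at 27.0 and 31.3 CPM in the 16-cell embryos. It was therefore at least 8.84-fold higher, taking the floor of 3 reads in each 8-cell library, with a log2 difference of 5.14 ± 0.70 (SE) and a limma adjusted p of 0.0065. In the early morulae it was at 1.63 and 0 CPM, so that the 16-cell embryos stood above both neighbours in time. It was at 6.15 and 2.14 CPM in the compact morulae and had no read in the blastocysts. Interferon tau genes are near-identical copies among which reads may be split, and IFNT2 was at 8.66 and 7.70 CPM in the 8-cell embryos and at 17.0 and 70.8 in the 16-cell embryos, not called (limma adjusted p = 0.30).

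SMAD9, a signal transducer of the bone morphogenetic protein pathway, showed the same brief appearance. It had no read in the 4-cell embryos, the 8-cell embryos or the early morulae, and was at 29.4 and 16.5 CPM in the 16-cell embryos, at least 6.94-fold higher than at the 8-cell stage. LOC100851269 likewise had reads in the 16-cell embryos, at 17.8 and 14.8 CPM, and none in the 4-cell or 8-cell embryos, early morulae or blastocysts. SMAD9, LOC100851269 and IFNT passed the filter on low values through the 16-cell embryos, where they are high, so that their calls add nothing to these values. CUFF.54929.1 passed it through the 8-cell embryos, where it is high, and the same limit applies to its call. Over all 53 higher loci, 27 had no read in either 8-cell embryo, 12 had none in the 4-cell embryos either, and 5 had none in the early morulae.

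Large rises among genes with a symbol and at least 50 CPM were given for 8 genes, DNMT3A, FLII, RNF17, PIK3C2A, HMGN1, MTAP, HSP90B1 and ADAM10. DNMT3A, a de novo DNA methyltransferase, was at 8.66 and 0.962 CPM in the 8-cell embryos and at 68.8 and 191 CPM in the 16-cell embryos (4.81 ± 5.44 and 130 ± 86.4, SD, n = 2). Its log2 difference was 4.65 ± 1.03 (SE) with a limma adjusted p of 0.048. It was at 10.6 and 26.0 CPM in the early morulae and at 1040 and 706 CPM in the blastocysts, so that the 16-cell level lay between those of later stages. The groups did not overlap, and 16-cell embryo 2 was the highest of the 4.

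FLII, an actin-binding gelsolin-family protein, was at 4.95 and 0.962 CPM and then at 40.9 and 132 CPM, a log2 difference of 4.38 ± 0.79 (SE, limma adjusted p = 0.029). PIK3C2A, a phosphoinositide kinase of endocytosis, was at 7.42 and 1.92 CPM and then at 40.2 and 60.9 CPM. Both genes were low in both 8-cell embryos, and 16-cell embryo 2 was the higher of its stage in each.

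RNF17, a Tudor-domain protein of germ cells, was at 1.24 and 9.62 CPM in the 8-cell embryos and at 59.5 and 70.8 CPM in the 16-cell embryos, after 54.9 and 64.5 CPM in the 4-cell embryos. HSP90B1, the HSP90 chaperone of the endoplasmic reticulum, was at 7.42 and 18.3 CPM and then at 68.8 and 118 CPM, after 82.6 and 159 CPM. HMGN1, a nucleosome-binding protein, was at 7.42 and 4.81 CPM and then at 32.5 and 132 CPM, after 106 CPM in both 4-cell embryos. These genes were low at the 8-cell stage and had 16-cell values that overlapped or approached those of the 4-cell stage.

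The same course was followed by MTAP, an enzyme of methionine salvage, at 38.9 and 39.3 CPM, then 4.95 and 3.85, then 32.5 and 72.4. ADAM10, a membrane protease that sheds surface proteins, was at 47.2 and 37.5 CPM, then 11.1 and 9.62, then 44.8 and 133. Over all 53 higher loci, 25 had been called lower in 8-cell than in 4-cell embryos, and 28 were not called over that step. In the general run of loci 19.1% were called lower in 8-cell than in 4-cell embryos, but both comparisons use the same 8-cell embryos, so that a low 8-cell value enters both.

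The 8 rises kept their direction under every alternative, and their calls did not hold equally. DESeq2 called 8 of the 8 and edgeR 0, with edgeR adjusted p between 0.11 and 0.15. Without 8-cell embryo 1, 8 were called, without 8-cell embryo 2 there was 1, without 16-cell embryo 1 there were 2, and without 16-cell embryo 2 there were 0, with log2 differences between 2.13 and 4.18 in that last fit.

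**Figure D3:**
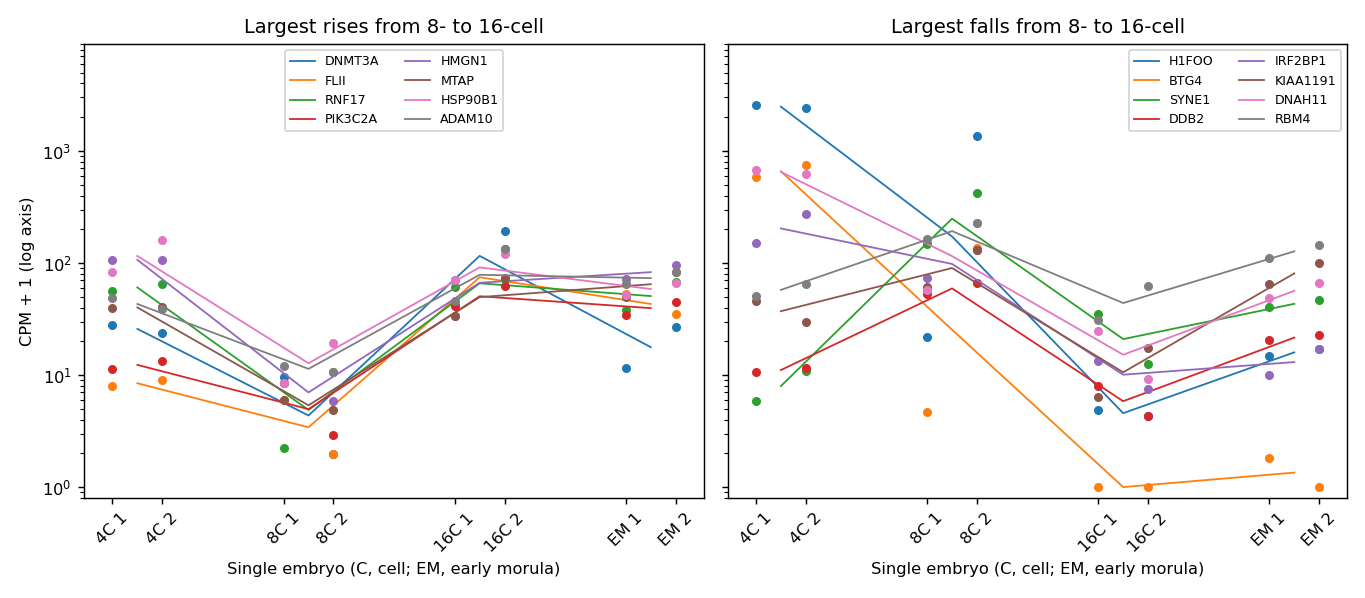
CPM + 1 on a log axis in each 4-cell (4C), 8-cell (8C) and 16-cell (16C) embryo and early morula (EM) for the genes with a symbol and large rises (left, 8 genes) and the largest falls (right, 8 genes); dots are single embryos and lines join the geometric means of the 2. On the left the points dip at the 8-cell stage, and on the right H1FOO and BTG4 are high in 8-cell embryo 2 and low in 8-cell embryo 1.

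In a few places neighbours rose together. TEX9 and MNS1, genes of sperm and cilia that overlap in the ARS-UCD2.0 gene table, had no read in the 8-cell embryos. TEX9 was at 192 and 208 CPM in the 4-cell embryos and at 21.6 and 28.0 in the 16-cell embryos, and MNS1 was at 71.5 and 76.2 and then at 10.8 and 21.4. Whether the counting used strand is not given in the sources used here, so the reads of such a pair cannot be told apart. The same table shows an overlapping protein-coding gene for BTG4, DDB2, DNAH11, DNMT3A, DUOXA2, EZR, FLII, GJB5, KLF17, METTL23, PRPF31 and SETDB1, and the values of these genes carry the same limit. FMR1, an RNA-binding regulator of translation, was at 4.95 and 4.81 CPM and then at 44.8 and 51.0 CPM (log2 difference 2.95 ± 0.60, SE, limma adjusted p = 0.037), and its neighbour FMR1NB was at 0 and then at 6.18 and 11.5 CPM. These 4 genes were chosen after their values were seen.

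Of loci without a symbol, CUFF.4525.1 was at 143 and 344 CPM in the 4-cell embryos, 4.95 and 0 in the 8-cell embryos and 107 and 260 in the 16-cell embryos, with a log2 difference of 6.10 ± 0.98 (SE, limma adjusted p = 0.019). CUFF.23049.1 was at 4.95 and 0 CPM and then at 90.4 and 174 CPM. CUFF.79568.1 had no read in the 8-cell embryos and was at 134 and 16.5 CPM in the 16-cell embryos, at least 22.9-fold higher, with most of that from 16-cell embryo 1. In all of them the 8-cell embryos were at or near 0. FASN, the fatty acid synthase, had no read at the 8-cell stage and was at 4.64 and 37.8 CPM at the 16-cell stage and at 107 and 101 CPM in blastocysts.

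The 8 largest falls among genes with a symbol and at least 50 CPM began with H1FOO and BTG4, remains of the oocyte's store. H1FOO, the oocyte linker histone, was at 2544 and 2419 CPM in the 4-cell embryos, 21.0 and 1347 in the 8-cell embryos and 3.86 and 3.29 in the 16-cell embryos. Its log2 difference, 16-cell minus 8-cell, was -5.43 ± 1.15 (SE) with a limma adjusted p of 0.043, and without 8-cell embryo 2 it was -2.60 and no longer called (adjusted p = 0.085). BTG4, an adaptor of the CCR4-NOT deadenylase that clears stored mRNA, was at 3.71 and 136 CPM in the 8-cell embryos and had no read in the 16-cell embryos, so that it was at least 19.2-fold lower. That bound rests on 8-cell embryo 2, since 8-cell embryo 1 was at its floor of 3 reads, and without embryo 2 the log2 difference was -2.68 and not called (limma adjusted p = 0.19). DNAH11, an axonemal dynein, was at 137 and 114 CPM in the oocytes and higher in the 4-cell embryos, at 672 and 627 CPM. It was then at 56.9 and 228, then 24.0 and 8.23. The groups did not overlap in these genes, but 8-cell embryo 2 was far above 8-cell embryo 1 in each.

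Other falls started from closer values in the 8-cell embryos. RBM4, an RNA-binding regulator of splicing, was at 162 and 226 CPM in the 8-cell embryos and 30.1 and 60.9 in the 16-cell embryos (194 ± 45.2 and 45.5 ± 21.7, SD, n = 2). Its log2 difference was -2.30 ± 0.49 (SE) with a limma adjusted p of 0.043. DDB2, a damage-recognition protein of nucleotide excision repair, was at 52.0 and 65.4 CPM and then at 6.95 and 3.29 CPM, a log2 difference of -3.52 ± 0.76 (SE, limma adjusted p = 0.043). In the early morulae RBM4 was at 110 and 145 CPM and DDB2 at 19.6 and 21.6 CPM, above both 16-cell embryos.

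SYNE1, a nuclear envelope protein that links the nucleus to actin, was at 4.86 and 9.83 CPM in the 4-cell embryos, 147 and 417 in the 8-cell embryos and 34.0 and 11.5 in the 16-cell embryos. IRF2BP1, a transcriptional corepressor, was at 73.0 and 129 CPM and then at 12.4 and 6.58 CPM. KIAA1191 was at 60.6 and 131 CPM, then at 5.41 and 16.5 CPM, and at 63.7 and 99.7 CPM in the early morulae. Among loci without a symbol, LOC100295067 was at 52.0 and 54.8 CPM in the 8-cell embryos with no read in the 16-cell embryos, at least 14.7-fold lower. CUFF.34947.1 was at 8.66 and 99.1 CPM with no read in the 16-cell embryos, and LOC788530 was at 45.8 and 68.3 CPM and then at 10.04 and 1.65 CPM. CUFF.34947.1 passed the filter on low values through the 8-cell embryos, so that its call adds nothing to these values. The low 16-cell values were shared by both embryos of that stage.

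The 8 falls kept their direction under every alternative. DESeq2 called 8 of the 8 and edgeR 0, without 8-cell embryo 1 there were 8 called, without 16-cell embryo 1 there were 3, and without 8-cell embryo 2 or 16-cell embryo 2 there were 0. With TMM factors 2 were called, with adjusted p up to 0.063. Over all 30 lower loci, 8-cell embryo 2 was above 8-cell embryo 1 at 22, with the share of all loci so ordered not given here. At 16 of the 30 there was no read in either 16-cell embryo. Early morulae against 4-cell embryos, a comparison of other means in the same fit, had 10 of the 30 called lower and 5 called higher, with 20.4% and 19.6% of all loci so called.

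The first wave was taken as the loci called higher in 8-cell than in 4-cell embryos, which were 1711 of the 9670 (17.7%). Of these, 0 rose again at the 16-cell stage (0.548% of all loci rose), 18 or 1.05% faded (0.310% of all loci fell) and 1693 were called in neither direction, while all 53 loci that rose at the 16-cell stage joined from outside the wave. edgeR, which called 0 loci in all, cannot bear on these counts, DESeq2 gave 3 that rose again and the fit without 8-cell embryo 1 gave 14, and at an unadjusted p of 0.05 limma gave 64 higher (3.74%) and 290 lower (16.9%) loci in the wave, beside 9.23% and 8.07% of all loci. The sorting uses the 8-cell embryos in both steps, so that a high 8-cell value favours both entry into the wave and a fall after it.

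The median log2 difference of the first-wave loci, 16-cell minus 8-cell, was -0.41, with 0.00 over all loci tested, and it was -0.54 without 8-cell embryo 2 and -0.26 with scaling by total reads. Their median level is given as log2(deposited value + 1), where deposited values are counts divided by a size factor. It was 1.91 and 1.78 in the 4-cell embryos, 5.63 and 5.48 in the 8-cell embryos, 5.21 and 5.26 in the 16-cell embryos and 5.49 and 5.51 in the early morulae. On this scale, which is not CPM, the 16-cell embryos were thus the lowest of these later embryos, by less than the step that opened the wave. A set called from the means of other stages, with these 4 embryos in the model's spread and filter alone, did not share the lower median. Of the 1893 loci (19.6%) called higher in early morulae than in 4-cell embryos, 8 were higher and 5 lower at the 16-cell stage, and their median log2 difference was 0.09. At an unadjusted p of 0.05 they held 10.7% higher and 9.40% lower loci, close to the 9.23% and 8.07% of all loci.

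Of the 18 that faded, SYNE1, RBM4 and DDB2 were the ones with a symbol and at least 50 CPM. The following were of lower level, and all but PRPF31 were chosen after their values were seen. CAD, which carries the first enzymes of pyrimidine synthesis, was at 7.42 and 30.8 CPM in the 8-cell embryos, had no read in the 16-cell embryos, and was at 7.35 and 22.1 CPM in the early morulae. DUOXA2, a maturation factor of dual oxidases, was at 4.95 and 26.0 CPM, then had no read, and was then at 31.1 and 55.9 CPM. PRPF31, a spliceosome protein, was at 16.1 and 29.8 CPM and then at 0.773 and 0 CPM. PGR, the progesterone receptor, was at 13.6 and 9.62 CPM, then 0 and 1.65, with no read in the early morulae. It passed the filter on low values through the 8-cell embryos, where it is high, so that its call adds nothing to these values. CAD and DUOXA2 thus had reads again one stage later, and PGR did not.

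The first-wave loci with the highest levels were not called at the 16-cell stage. TUBA1C, an alpha-tubulin, was at 31142 and 31032 CPM in the 8-cell embryos and at 28073 and 35073 CPM in the 16-cell embryos, with a log2 difference of -0.15 ± 0.76 (SE, limma adjusted p = 0.97). RAN, the GTPase of nuclear transport, was at 21208 and 24523 CPM and then at 18625 and 18729 CPM. METTL23, a protein methyltransferase, was at 15139 and 10005 CPM and then at 16161 and 16672 CPM, with SRSF2 overlapping it in the ARS-UCD2.0 gene table. CAND2, an exchange factor of cullin ligases, was at 12718 and 21583 CPM and then at 15021 and 7807 CPM. SURF1, an assembly factor of cytochrome c oxidase, was at 21789 and 24771 CPM and then at 11242 and 4710 CPM, a log2 difference of -1.84 ± 0.71 (SE, limma adjusted p = 0.20). In the same gene table RPL32 is adjacent to CAND2 and RPL7A to SURF1, without overlap. Whether reads of these neighbours were counted at the 2 loci was not tested. Over the 1693 uncalled loci of the wave the median SE of the log2 difference was 0.78, so that a change of 1 on this scale could not be told from no change in most, and 984 lay within that distance while 528 were lower and 181 higher by more.

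ODC1, the first enzyme of polyamine synthesis, held the most reads of the 4 embryos. It was at 5467 and 7772 CPM in the 4-cell embryos, 32522 and 15191 in the 8-cell embryos, 49447 and 59043 in the 16-cell embryos and 23404 and 15396 in the early morulae. Both 16-cell embryos were above both 8-cell embryos, and the difference was not called (log2 difference 1.12 ± 0.96, SE, limma adjusted p = 0.58).

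Among the members of the 27 gene lists DNMT3A, IFNT and HSP90B1 rose, and PRPF31, H1FOO and BTG4 fell. The list of stored oocyte transcripts had 2 of 27 tested members called lower, BTG4 and H1FOO, and 0 higher, against 0.310% and 0.548% of all loci. Its median log2 difference was -1.30, or -1.17 with genes without reads at one stage set to the floor of 3 reads, 0.00 without 8-cell embryo 2 and -3.15 without 8-cell embryo 1. The summed level was 9829 and 10613 CPM in the 4-cell embryos, 118 and 2074 in the 8-cell embryos and 83 and 206 in the 16-cell embryos. Without H1FOO, which held most of the sum in 8-cell embryo 2, it was 96.5 and 727 CPM in the 8-cell embryos and 78.8 and 202 CPM in the 16-cell embryos. Of the 28 members with a read in an 8-cell embryo, 26 were higher in 8-cell embryo 2, and the share of all loci so ordered is not given here.

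WEE2, the kinase that holds oocytes in arrest, was low in both 8-cell embryos, at 52.0 and 91.4 CPM after 4280 and 5287 CPM, and was then at 9.27 and 28.0 CPM (limma adjusted p = 0.14). KIT, the receptor of the oocyte's growth signal from follicle cells, went the other way, from 0 and 3.85 CPM to 12.4 and 59.2 CPM (limma adjusted p = 0.080).

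**Figure D4:**
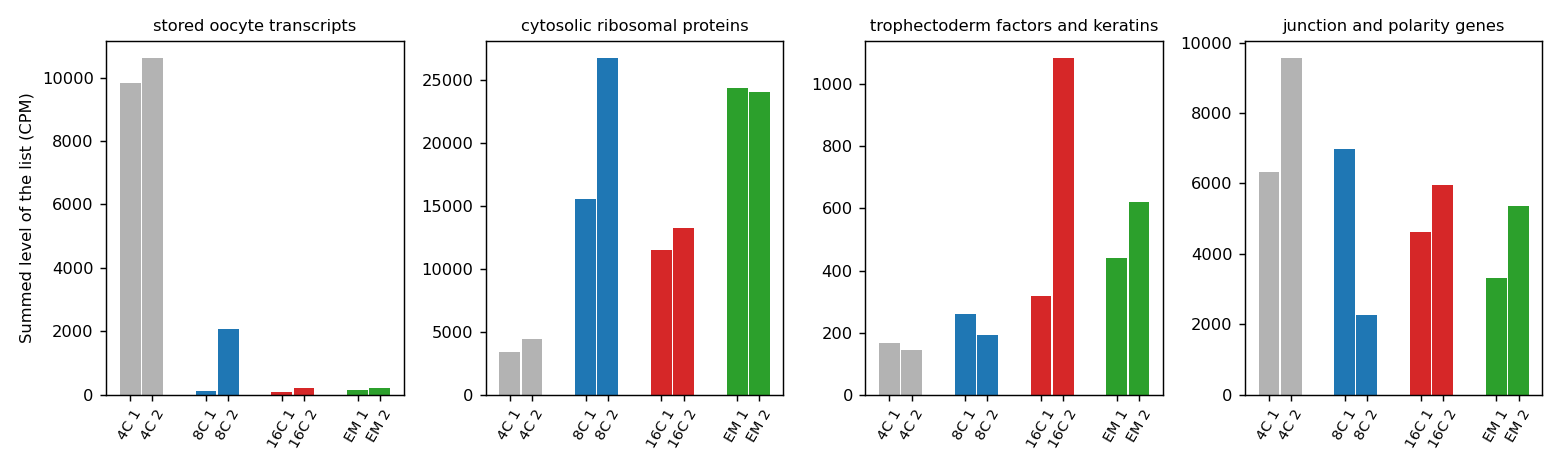
Summed CPM of 4 gene lists in each 4-cell (grey), 8-cell (blue) and 16-cell (red) embryo and early morula (green), on axes that start at 0. After the 4-cell stage stored oocyte transcripts were highest in 8-cell embryo 2, at 2074 CPM, ribosomal protein transcripts were lower in both 16-cell embryos than in the 8-cell embryos and early morulae, trophectoderm genes were highest in 16-cell embryo 2, and junction genes were lowest in 8-cell embryo 2.

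Transcripts of cytosolic ribosomal proteins had a lower sum in both 16-cell embryos, and limma called none of them. The summed level of the list was 15536 and 26737 CPM in the 8-cell embryos, 11523 and 13223 in the 16-cell embryos and 24400 and 24034 in the early morulae. Of 80 tested members 72 belonged to the first wave, to which 17.7% of all loci belonged. A lower mean CPM at the 16-cell than at the 8-cell stage was found for 71 of them and for 46.5% of all loci, and a higher mean in early morulae than in 16-cell embryos for 79 of them and for 62.3% of all loci. At an unadjusted p of 0.05 limma gave 28 of the 80 lower and 0 higher (8.07% and 9.23% of all loci), edgeR called 0 and DESeq2 called 7 lower (2.06% of all loci with an adjusted p). The median log2 difference was -1.01 (0.00 over all loci), and -0.59 without 8-cell embryo 2. RPL28 was at 3197 and 4425 CPM and then at 1509 and 732 CPM, RPS19 was at 245 and 940 CPM and then at 40.9 and 105 CPM, and RPS20 was at 3129 and 4652 CPM and then at 4732 and 3069 CPM. The list was thus lower at the 16-cell stage than at the stages on either side, and the embryos overlapped for RPS20.

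Medians of other lists of housekeeping machinery were smaller in size with the 4 embryos. The median log2 difference was -0.53 for 60 translation factors, -0.70 for 70 subunits of the respiratory chain and ATP synthase, and -0.49 for 68 mitochondrial ribosomal proteins. When each embryo was left out in turn, these medians ran from -0.73 to -0.42, from -0.75 to -0.47 and from -0.75 to -0.34, and so stayed below 0. Medians of 40 proteasome subunits (-0.32), 73 members of RNA polymerase II and Mediator (-0.29), 74 genes of ribosome biogenesis (-0.27) and 88 splicing factors (-0.17) ran from -0.42 to -0.13, from -0.73 to -0.03, from -0.65 to -0.03 and from -0.32 to -0.06. PRPF31 was the one member called by limma among all of these. Medians of 38 cyclins and mitotic regulators (-0.17), 47 replication genes (-0.14), 32 chaperones (0.09) and 16 genes of glucose uptake and glycolysis (0.10) turned sign, with ranges from -0.70 to 0.22, -0.46 to 0.04, -0.01 to 0.20 and -0.58 to 0.82. That of 8 ion pumps and aquaporins was 0.25 and ran from 0.02 to 0.44. CKS1B, a cyclin-dependent kinase subunit that made up much of the cyclin list, was at 2326 and 7455 CPM and then at 1405 and 1644 CPM (limma adjusted p = 0.27).

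**Figure D5:**
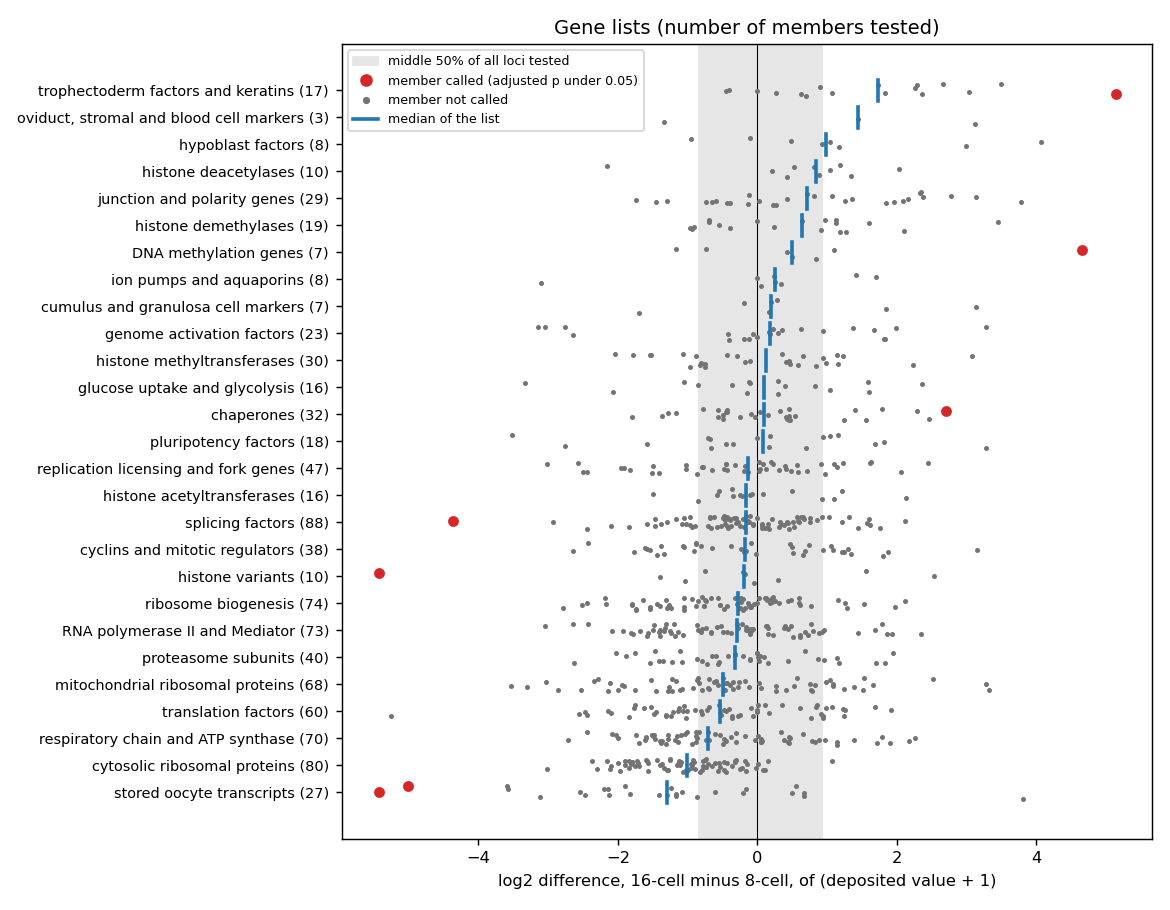
log2 difference, 16-cell minus 8-cell, of log2(deposited value + 1) for each tested member of the 27 gene lists; red dots are members called by limma, blue bars are list medians and the grey band holds the middle 50% of all loci. Medians run from -1.30 for stored oocyte transcripts to 1.74 for trophectoderm genes.

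Several transcription factors tied to genome activation differed widely between the 8-cell embryos. KLF17, a Kruppel-like factor of the wave, was at 0.694 and 1.84 CPM in the 4-cell embryos, 679 and 3582 in the 8-cell embryos and 454 and 146 in the 16-cell embryos, a log2 difference of -2.75 ± 0.81 (SE, limma adjusted p = 0.11). ARGFX, a homeobox gene of cleavage embryos, was at 49.5 and 189 CPM, then 22.4 and 6.58, then 104 and 132 in the early morulae. DUXA, a homeobox gene of the same kind, was at 9.90 and 186 CPM and then at 4.64 and 4.94 CPM, and NANOG, a factor of the inner cell mass, was at 4.95 and 71.2 CPM and then at 3.09 and 0 CPM. All of these were higher in 8-cell embryo 2 than in 8-cell embryo 1, both 16-cell embryos were below both 8-cell embryos, and none was called by limma.

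POU5F1, the pluripotency factor OCT4, was at 5926 and 2727 CPM and then at 3596 and 3462 CPM, with overlap between the stages. TBX3, a T-box repressor, was at 53.2 and 2.89 CPM and then at 95.8 and 245 CPM (limma adjusted p = 0.11), and GATA6, a factor of the hypoblast, was at 118 and 100 CPM and then at 134 and 400 CPM. The lists of 23 genome activation factors and 18 pluripotency factors had medians of 0.18 and 0.09 and held 0 calls by limma and 0 by edgeR. At an unadjusted p of 0.05 limma gave 2 higher and 4 lower in the first list and 2 higher and 3 lower in the second, beside 9.23% and 8.07% of all loci, and DESeq2 called 1 lower in each (2.06% of all loci with an adjusted p). When each embryo was left out the medians ran from -0.07 to 0.33 and from -0.18 to 0.27.

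Trophectoderm factors and keratins were the list with the highest median, 1.74 over 17 tested members, with IFNT called (0.548% of all loci) and 6 members higher at an unadjusted p of 0.05 (9.23% of all loci). Its summed level was 261 and 191 CPM in the 8-cell embryos and 318 and 1084 in the 16-cell embryos. The sum was 2536 and 2347 CPM in the blastocysts, where IFNT had no read. Of the 19 members with a read in a 16-cell embryo, 17 were higher in 16-cell embryo 2, and the share of all loci so ordered is not given here. Without 16-cell embryo 2 the median was 0.43. Markers of oviduct, stroma and blood were also highest in 16-cell embryo 2, at 82 CPM against 20 to 32 CPM in the others, with 8 of 16 having reads there, and their part in this was not tested. KRT8 and KRT18, the keratin pair of simple epithelia, were at 3.86 and 102 CPM and at 11.6 and 114 CPM in the 16-cell embryos. PTGS2, a prostaglandin synthase, was at 0 and 67.5 CPM there and had no read in the 8-cell embryos or early morulae. DNMT3A and FASN were also higher in 16-cell embryo 2 and high in blastocysts, and whether the state of that embryo takes part in their rise was not tested.

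Junction and polarity genes and hypoblast genes had medians above that of all loci with the 4 embryos, 0.71 over 29 members and 0.98 over 8, or 0.42 and 0.71 with genes without reads at one stage set to the floor. Without 8-cell embryo 2 the medians were -0.11 and 0.59, and without 8-cell embryo 1 they were 1.53 and 1.15, so that the higher median of junction genes rested on 8-cell embryo 2. Without 16-cell embryo 2 they were 0.44 and 0.36. limma called 0 in both, with 6 and 2 members higher at an unadjusted p of 0.05 (9.23% of all loci), and edgeR called 0 in both while DESeq2 called 1 junction gene higher (1.54% of all loci with an adjusted p). TJP1, the tight junction scaffold ZO-1, was at 37.1 and 15.4 CPM and then at 73.4 and 281 CPM (limma adjusted p = 0.094). EZR, the linker ezrin of the apical membrane, was at 163 and 51.0 CPM and then at 375 and 569 CPM, and was at 94.8 and 96.9 CPM in the early morulae. DSG2, a desmosomal cadherin, was at 42.1 and 0 CPM and then at 34.8 and 237 CPM, and FN1, fibronectin, was at 114 and 0 CPM and then at 110 and 306 CPM. In DSG2 and FN1 the one 8-cell embryo with reads, embryo 1, was at the level of 16-cell embryo 1.

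Among histone variants and enzymes that modify histones and DNA, H1FOO fell and DNMT3A rose, as given above, and limma called no other member. H2AFV, a variant of histone H2A, was at 19.8 and 26.9 CPM and then at 61.8 and 98.7 CPM, a log2 difference of 1.56 ± 0.55 (SE, limma adjusted p = 0.16). H3F3A, one of the genes of histone H3.3, was at 66.8 and 133 CPM and then at 34.0 and 46.1 CPM, while H3F3B, the other, was at 158 and 215 CPM and then at 134 and 298 CPM. H2AFZ was at 66.8 and 172 CPM and then at 74.2 and 153 CPM, and H2AFX was at 48.3 and 106 CPM and then at 71.1 and 31.3 CPM. The stages were apart for H2AFV and H3F3A and overlapped for the others.

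SUV39H2, a methyltransferase of histone H3 lysine 9, came closest to the threshold among the enzymes, with 66.0 and 63.9 CPM in the 4-cell embryos, 19.8 and 10.6 in the 8-cell embryos and 109 and 191 in the 16-cell embryos, a log2 difference of 3.08 ± 0.73 (SE, limma adjusted p = 0.059). SETDB1, another of that specificity, was at 386 and 158 CPM and then at 423 and 1004 CPM, and PRMT5, an arginine methyltransferase, was at 11.1 and 95.2 CPM and then at 12.4 and 8.23 CPM. KDM5B, a demethylase of histone H3 lysine 4, was at 118 and 146 CPM and then at 82.7 and 67.5 CPM, and KDM1A, of the same mark, was at 127 and 51.9 CPM and then at 70.3 and 44.4 CPM. None of the 30 methyltransferases and 19 demethylases tested was called by limma or edgeR. At an unadjusted p of 0.05 limma gave 2 and 3 higher and 0 lower, beside 9.23% and 8.07% of all loci, and DESeq2 called 1 methyltransferase higher (1.54% of all loci with an adjusted p).

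Among acetylation enzymes HDAC1, a deacetylase of the first wave, was at 184 and 171 CPM and then at 321 and 423 CPM, a log2 difference of 0.89 ± 0.58 (SE, limma adjusted p = 0.45). HDAC2 was at 37.1 and 25.01 CPM and then at 58.7 and 87.2 CPM. CREBBP, an acetyltransferase, was at 24.7 and 60.6 CPM and then at 89.6 and 77.3 CPM, and HAT1, which acetylates new histone H4, was at 24.7 and 91.4 CPM and then at 29.4 and 42.8 CPM. Both 16-cell embryos lay above both 8-cell embryos for HDAC1, HDAC2 and CREBBP, and none of these differences was called. TET1, a dioxygenase that oxidises methylated cytosine, was at 11.8 and 1.84 CPM in the 4-cell embryos, 1662 and 1130 in the 8-cell embryos and 3533 and 3092 in the 16-cell embryos, a log2 difference of 1.11 ± 0.87 (SE, limma adjusted p = 0.53). The deposited label of this locus is LOC513640, and the name TET1 comes from its gene ID. The study measured TET1 in TPM, which is divided by gene length, and did not count it as abundant at any stage. The reason for this difference was not tested.

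Markers of cells that could adhere to an embryo were also examined. Of 18 cumulus and granulosa markers 9 had no read in the 4 embryos, FSHR, CYP11A1, INHA and AMH among them, and 6 to 8 had reads in each embryo. STAR, a cholesterol carrier of steroid-producing cells, was at 379 and 842 CPM in the 8-cell embryos and 708 in both 16-cell embryos, after 1526 and 1727 in the 4-cell embryos, and the others summed to 29.7 and 51.0 CPM and then to 107 and 118 CPM. Markers of oviduct, stroma and blood summed to 32 and 22 CPM in the 8-cell embryos and to 20 and 82 CPM in the 16-cell embryos. Their part in the stage differences was not tested.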

How the data were processed

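Single embryos were sequenced after TRIzol extraction and amplification. The authors trimmed, mapped and counted the reads, with cutadapt, FastQC, TopHat, Cufflinks and HTSeq named in the submitters' processing notes; the genome build, the rule for reads with several matches and strand are not given in the sources used here. The deposited values are a signal per locus, counts divided by a size factor per sample. Divided by the value of 1 read, at least 99.99% of the values of every sample came out whole within 0.001 of a read, so that whole reads were recovered and CPM computed from them.

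Loci passed edgeR's filterByExpr over the 16 samples. limma 3.58.1 (R 4.3.3, empirical Bayes with trend) was fitted on log2(deposited value + 1) with 8 stages, so that differences of genes with few reads are understated, with Benjamini-Hochberg adjustment at 0.05. edgeR 4.0.16 and DESeq2 1.42.0 on the recovered reads were alternatives, with other scalings, pseudocounts, filters and sample sets and each embryo left out. The limma test alone was run on simulated data, and the outcome is not reported here. Replicate numbers did not pair the embryos (correlation of deviations 0.01).

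Members, lists and tests were chosen with earlier results of these data known. Named were, of loci past the threshold without overlap and with a mean of 50 CPM or more, the 10 largest rises and 10 largest falls with a symbol (8 of each are given, and a further result is not reported here) and 3 each without; 5 per class of first-wave loci; up to 4 called members per list; genes of these lists that the study names, here restricted to those of 50 CPM or more; and the 5 loci with most reads. Names beginning CUFF, LOC or XLOC counted as no symbol. Others were chosen after their values were seen: the genes that set the 8-cell embryos apart, KIT, WEE2, FASN, SMAD9, IFNT2, CKS1B, STAR, the locus CUFF.54929.1, LOC100851269, and the uncalled genome activation, pluripotency, trophectoderm, hypoblast, junction and ribosomal genes. Where a symbol has several loci, the one with the highest mean was used. Of the list entries, 1105 were found in the table, 16 of them by a synonym or gene ID (DUXA and TET1 among them), and 26 were not. Promoter sequences were not analysed here.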

Additional observations from a re-analysis of the deposited data

How the results depend on the processing

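Counts of higher, lower, faded and joined loci were 53, 30, 18 and 53 in the model of 8 stages. They were 0 by edgeR, the higher and lower were 0 with the 4 embryos alone, and the faded and joined were 0 with the 4-, 8- and 16-cell embryos alone. By DESeq2 87 were lower, 32 faded and 3 rose again. With the filter on the 4 embryos the counts were 28, 12, 7 and 28, and without a filter 85 were higher, 31 faded and 85 joined. With a pseudocount of 5, 47 were lower, 39 faded and 1 rose again. TMM factors left 17 lower and 12 faded, and total reads left 13 lower and 10 faded and moved the median of all loci by 0.11. The replicate block, whose numbers the labels do not tie to a shared animal or day, gave 32, 12, 8 and 32. Leaving out each embryo gave 6 to 422 higher, 1 to 336 lower, 1 to 67 faded, 0 to 14 rising again and 6 to 408 joined, where a lone embryo is assumed to vary like the other stages. The causes were not tested.

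Some named genes that were not called turned sign in their log2 difference. TUBA1C came to 0.013 with total reads. H3F3B came to 0.049 by edgeR, 0.00084 with TMM factors and 0.12 with total reads, RPS20 to 0.015 by edgeR, and GJB5 to -0.57 by DESeq2 and -0.49 by edgeR. When each embryo was left out, the log2 difference ran from -0.19 to 0.70 for METTL23, from -1.59 to 0.088 for H2AFX, from -0.71 to 0.36 for H2AFZ, from -0.36 to 0.27 for H3F3B, from -1.48 to 0.087 for KDM1A, from -1.36 to 0.21 for HAT1 and from -1.06 to 0.35 for POU5F1. It ran from -0.74 to 0.41 for RPS20, from -1.73 to 6.39 for GJB5, from -0.43 to 2.97 for KDM4A, from -0.27 to 0.59 for STAR and from -0.93 to 4.96 for GPT2. The number of reads and of embryos limits all of these values.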
